A study of Bos indicus with 9 samples.

Results

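The myostatin (MSTN) locus was examined as every ATAC-seq peak that overlaps 5.9 to 6.7 Mb of chromosome 2 on ARS-UCD1.2, a window of 800 kb with MSTN near 6.28 Mb. The window was set by position only, and it holds 29 of 78528 peaks of the hypothalamus list, 11 of 40104 peaks of the muscle list, and 6 of 22291 peaks of the liver list, or 46 of 140923 peaks in all. ATAC-seq (assay for transposase-accessible chromatin with sequencing) marks open chromatin, because the Tn5 transposase inserts adapters where DNA is not packed by nucleosomes. Libraries came from frozen hypothalamus, muscle, and liver of the same 3 unrelated Brahman (indicine) heifers past puberty, and no other breed, genotype or treatment was compared. The 9 libraries were reduced by the authors to 1 consensus list per tissue, in which the p values of the 3 heifers were combined at each position. The strength of a peak is given by its AUC (area under the curve, as the peak caller computed it) and by the −log10 p at its summit, its highest position. Neither is a count of reads. Strong and weak therefore refer to these values of the peak caller, not to a measured degree of opening. Neither values per heifer nor read counts are in the lists, so no replicate error can be given and no difference between tissues was tested. A pooled tissue mixes cell types, and fewer cells with open chromatin cannot be told apart from less open chromatin per cell.

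Myostatin is a secreted ligand of the TGF-beta family, made mainly by skeletal muscle, which limits muscle growth. Loss of its function gives the double-muscled phenotype of several cattle breeds. It signals through activin type II receptors and SMAD transcription factors. Open chromatin at a gene commonly covers its promoter, and distal elements such as enhancers can lie far away from the gene they act on.

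No peak overlapped MSTN in any of the 3 lists. Over all peaks of the lists the nearest was in muscle, on chromosome 2 from 6251551 to 6252113, ending 27.9 kb before the 6.28 Mb point. In hypothalamus the nearest peak was at 6244950 to 6245404, ending 34.6 kb before that point. In liver the nearest peak was at 6506154 to 6506385, starting 226 kb after it. MSTN lies on the plus strand, so both the muscle and the hypothalamus peak are upstream of the gene, and no liver peak was found on that side closer than 299 kb. That muscle came nearer than hypothalamus rests on muscle peaks of low summit. With a minimum summit −log10 p of 5 the nearest muscle peak was 142 kb away, and with the 22291 highest summits of each list 292 kb, while hypothalamus stayed at 34.6 kb and so came nearest. The muscle and hypothalamus peaks are 6146 bp apart and do not overlap. The annotation of the authors, which gives each peak its nearest gene, assigned the muscle peak to MSTN and put it in distal intergenic sequence.

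**Figure D1:**
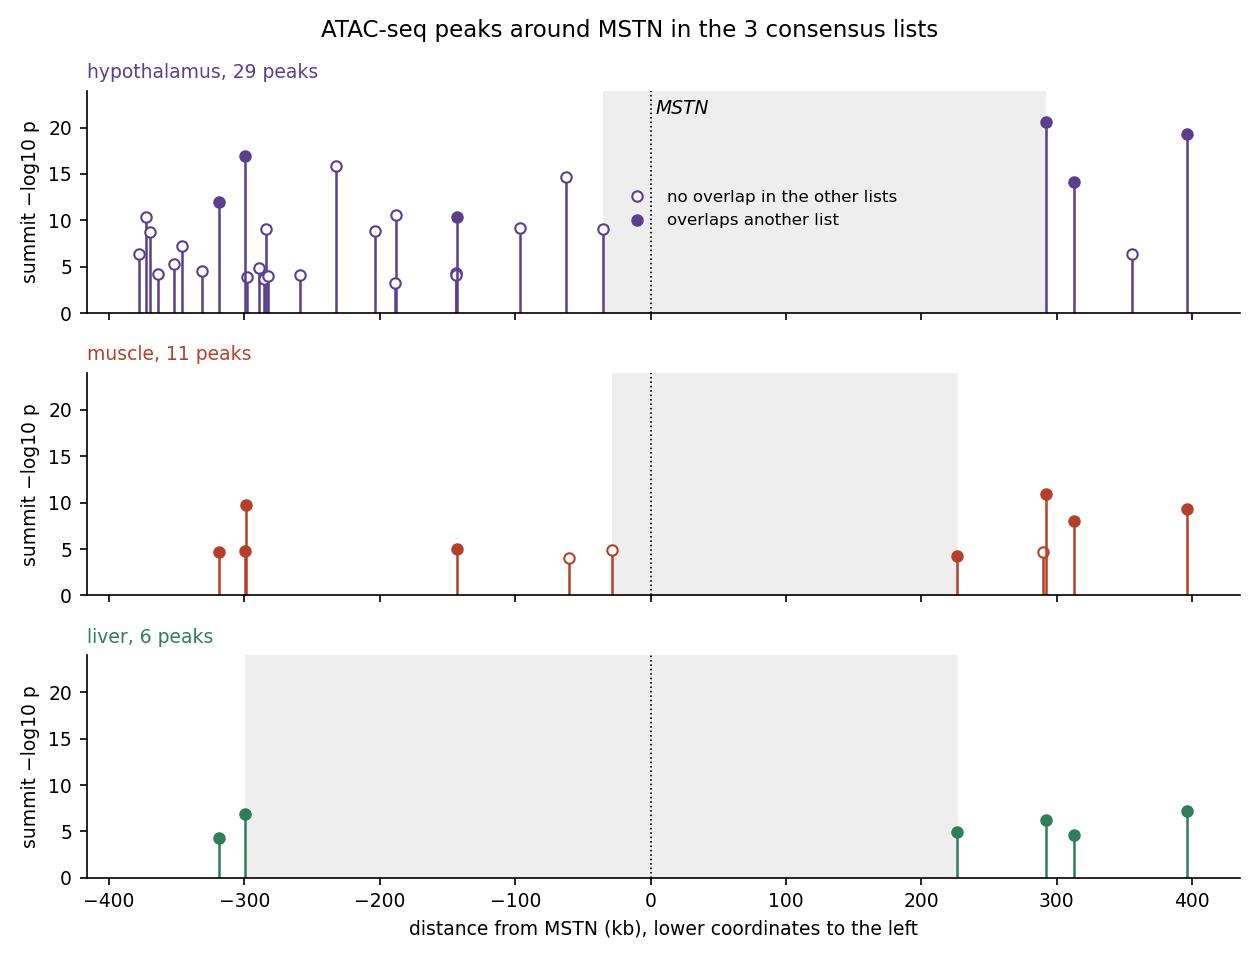
Peaks of the window by distance from MSTN (kb, horizontal axis) and summit −log10 p (vertical axis) in hypothalamus, muscle, and liver. Each stem is 1 peak, open circles have no overlap in the other lists, filled circles overlap another list, and grey marks the peak-free stretch that holds MSTN, which reaches from 27.9 kb before to 226 kb after the gene in muscle.

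Only 5 peaks came within 100 kb of the gene, all upstream of it. Of these 3 were hypothalamus peaks and 2 were muscle peaks, with 0 from liver. The muscle peak nearest to MSTN had a length of 563 bp, an AUC of 758, and a summit −log10 p of 4.86. Within the muscle list these values stood at percentile 58.7 for length, 53.9 for AUC, and 40.4 for the summit, where a percentile is the share of the list's peaks with a lower value. It was thus a peak of middling strength for this tissue. The second muscle peak, at 6219718 to 6219989, had a length of 272 bp, an AUC of 336, and a summit −log10 p of 4.06, at percentile 23.1 for AUC and 19.4 for the summit. This one was among the weaker muscle peaks.

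The 3 hypothalamus peaks near MSTN included a strong one. The peak at 6216639 to 6218628, which ends 61.4 kb before the 6.28 Mb point, was the longest peak of the window at 1990 bp. Its AUC was 7248 (percentile 90.5) and its summit −log10 p was 14.7 (percentile 89.7). Among the hypothalamus peaks with no overlap in the other lists it had the highest AUC. The second muscle peak starts 1089 bp after its end, so that the lists place signal side by side here without sharing a base. The hypothalamus peak nearest to MSTN had an AUC of 1197 (percentile 59.9) and a summit of 9.05, and the one at 6183580 to 6183950 had an AUC of 1376 (percentile 63.5) and a summit of 9.13. Both were slightly above the middle of the hypothalamus list by AUC, with lengths of 455 and 371 bp. By the summit they stood higher, at percentiles 73.4 and 73.8.

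MSTN sits in a long stretch with no peak, most of which is downstream of the gene in the hypothalamus and muscle lists and upstream of it in the liver list. The stretch measured 326 kb (6245405 to 6571307) by the hypothalamus list. By the muscle list it measured 254 kb (6252114 to 6506175), and by the liver list 525 kb (5981151 to 6506153). Over all 3 lists together, no peak was found in 254 kb from 6252114 to 6506153. The 2 bins of 100 kb between 6.3 and 6.5 Mb held 0 peaks in every list. This stretch was chosen for description after the peak positions were seen.

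Against the other stretches between neighbouring peaks on chromosomes 1 to 29, the stretch that holds MSTN was long in each list. In hypothalamus 1.48% of 69104 stretches were as long or longer, against a median of 9.50 kb. In muscle 6.59% of 29469 were as long or longer, with a median of 14.9 kb. In liver 9.97% of 11330 were as long or longer, with a median of 44.5 kb. Long stretches nevertheless hold much of the genome, and those of at least this length made up 28.1% of all peak-free bases in hypothalamus, 62.3% in muscle, and 66.9% in liver. Measured from points every 10 kb of the same chromosomes, the nearest peak was as far away as at MSTN, or farther, for 42.1% of points in hypothalamus, 70.9% in muscle, and 46.3% in liver. Among such points the distance from MSTN to the nearest peak was common, and in muscle it was shorter than the median distance of 84.8 kb. These points are evenly spaced positions and not genes. Whether the distance is common for a gene was not tested, since distances from other genes were not measured.

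**Figure D2:**
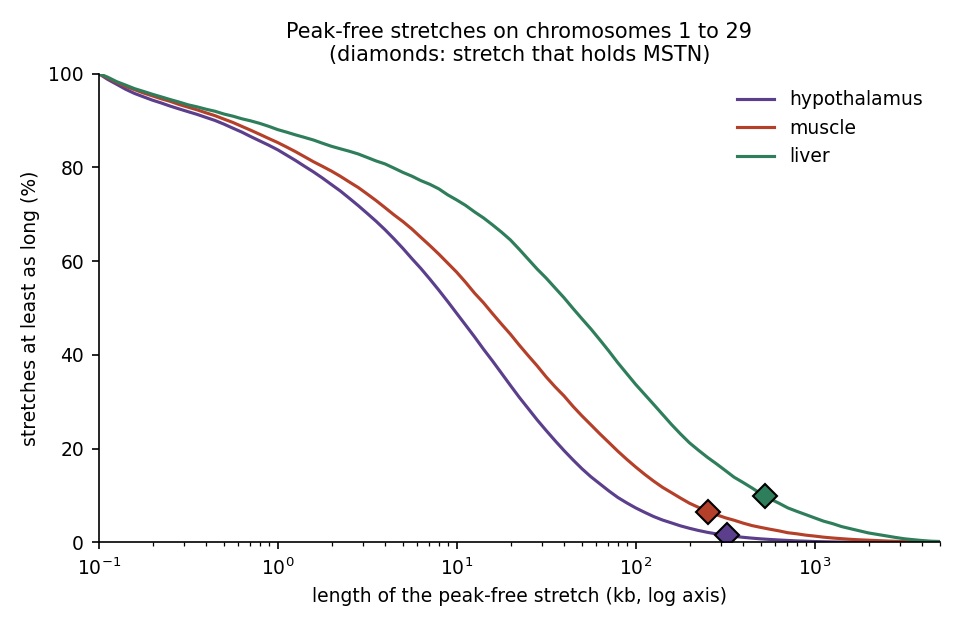
Share of peak-free stretches on chromosomes 1 to 29 that are at least as long (%, vertical axis) as a given length (kb, log axis) in each list. Diamonds mark the stretch that holds MSTN, which lies at 326 kb and 1.48% in hypothalamus, 254 kb and 6.59% in muscle, and 525 kb and 9.97% in liver.

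The peaks were unevenly placed on the 2 sides of the gene. Hypothalamus had 25 peaks upstream of MSTN and 4 downstream, muscle 6 and 5, and liver 2 and 4. From 5.9 to 6.0 Mb, around INPP1, there were 14 hypothalamus peaks, 3 muscle peaks, and 2 liver peaks. INPP1 encodes inositol polyphosphate-1-phosphatase, an enzyme of inositol phosphate turnover. From 6.0 to 6.2 Mb a further 9 hypothalamus peaks had 1 counterpart in muscle and 0 in liver. The upstream side was thus mainly populated by hypothalamus peaks of moderate size, with a median AUC of 1197 over 25 peaks. The 4 downstream hypothalamus peaks had a median AUC of 6903, and 3 of them lie at the promoters described next. Just beyond the downstream edge of the window the next peaks of the 3 lists overlapped one another, with the hypothalamus peak at 6776710 to 6777614, the muscle peak at 6777115 to 6777492, and the liver peak at 6777149 to 6777452. Before the upstream edge the last hypothalamus peak was at 5878750 to 5879607, and the last muscle and liver peaks, at 5786228 to 5786915 and 5786324 to 5786867, again shared a position.

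The order of protein-coding genes was taken from the RefSeq table of an indicine assembly other than ARS-UCD1.2, which was used for names and order only. It runs INPP1, HIBCH, C2H2orf88, LOC109565554, MSTN, PMS1, ORMDL1, OSGEPL1, ANKAR, and ASNSD1. The authors' annotation, on the build of the lists, names INPP1, C2H2orf88, MSTN, PMS1, OSGEPL1, and ASNSD1 in the muscle and liver lists. Of the 33 separate loci formed by merging overlapping peaks of the lists, 5 had a peak in all 3 lists. These were the promoters of INPP1, PMS1, OSGEPL1, and ASNSD1, and an intergenic locus whose nearest named gene was INPP1. At the intergenic locus 2 muscle peaks fell within 1 hypothalamus peak and both overlapped the liver peak, which gives 6 regions covered in all lists, 2553 bp in sum. That is 10.9% of the bases the hypothalamus peaks cover, 46.3% of those in muscle peaks, and 87.5% of those in liver peaks.

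By AUC the promoter of PMS1, a DNA mismatch repair gene on the far side of the peak-free stretch, was the strongest shared locus in hypothalamus and muscle and the third strongest in liver. The hypothalamus peak ran from 6571308 to 6572750, with an AUC of 11294.5 and a summit −log10 p of 20.6, the highest of the window in that list. The muscle peak ran from 6571536 to 6572696, with an AUC of 3519 and a summit of 10.95, also the highest of its list in the window. The liver peak ran from 6571734 to 6572306, with an AUC of 1017 and a summit of 6.21. The 3 peaks were nested, with the liver peak inside the muscle peak and the muscle peak inside the hypothalamus peak.

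ASNSD1, which encodes a protein with an asparagine synthase domain, had the highest liver peak of the window at its promoter. This liver peak ran from 6676168 to 6676736, with an AUC of 1405 and a summit of 7.21. The muscle peak at 6676185 to 6676773 had an AUC of 2015 and a summit of 9.33, and the hypothalamus peak at 6675328 to 6677041 had an AUC of 8078 and a summit of 19.3. In muscle and liver the peaks had almost the same length here, 589 and 569 bp, while the hypothalamus peak was 1714 bp long.

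OSGEPL1 encodes a mitochondrial protein needed for a modification of transfer RNA. At its promoter the hypothalamus peak (6592076 to 6593119) had an AUC of 5729 and a summit of 14.1. The muscle peak (6592312 to 6593069) had an AUC of 1917 and a summit of 8.07, and the liver peak (6592444 to 6592911) had an AUC of 451 and a summit of 4.66. The liver peak was below the middle of its list by AUC, at percentile 39.9, while the muscle peak was at percentile 81.8 of its own.

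At the INPP1 promoter the AUC was the lowest of the 5 shared loci in every list, taking the strongest peak of each list at a locus. The hypothalamus peak (5960473 to 5962381) had an AUC of 4963 and a summit of 11.9. The muscle peak (5960915 to 5961489) had an AUC of 573 and a summit of 4.69, and the liver peak (5960909 to 5961218) had an AUC of 230 and a summit of 4.35. The liver value lies close to 200.0, the lowest AUC of that list, and stood at percentile 7.22. The intergenic locus near INPP1 was stronger in every list. There the hypothalamus peak (5979696 to 5981610) had an AUC of 9497, the larger of the muscle peaks (5980665 to 5981211) an AUC of 2101, and the liver peak (5980384 to 5981150) an AUC of 1367. Its smaller muscle peak (5980394 to 5980563) was the shortest peak of the window at 170 bp, with an AUC of 308. In the other assembly the gene next to INPP1 on this side is HIBCH, which encodes an enzyme of valine breakdown. Whether this locus is the promoter of that gene was not tested, since no position of HIBCH on the build of the lists was used here.

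**Figure D3:**
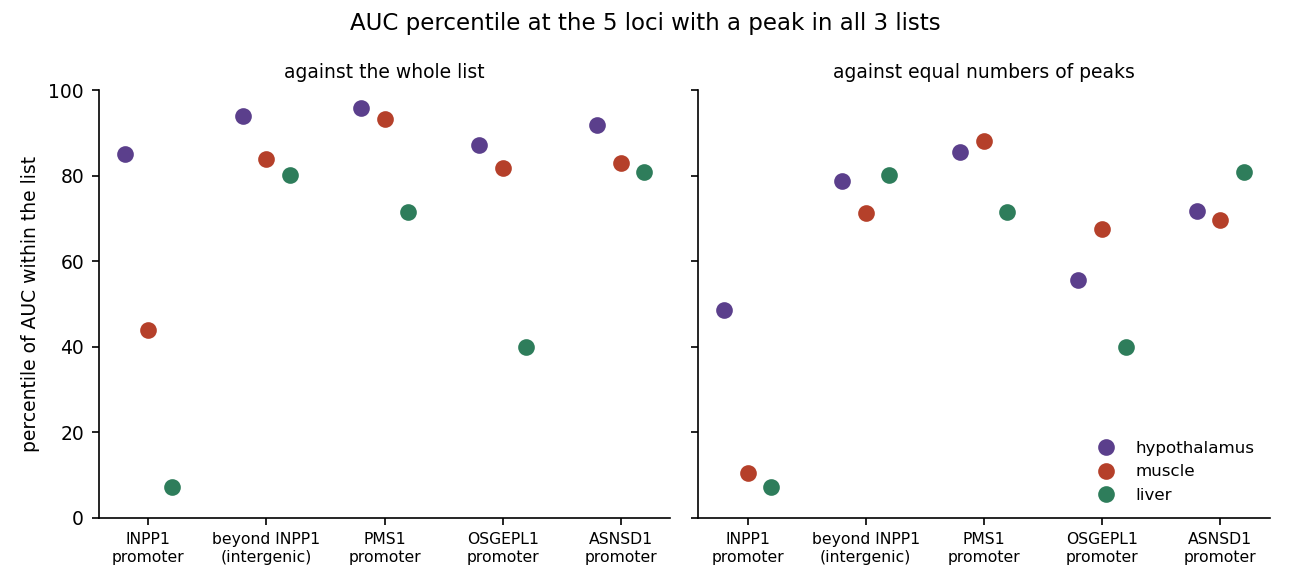
Percentile of the AUC (vertical axis) at the 5 loci with a peak in all 3 lists, against all peaks of each list (left) and against the 22291 peaks with the highest summit in each list (right); each point is 1 list. On the left hypothalamus is highest and liver lowest at 5 of 5 loci, and on the right at 1 of 5. That locus is the INPP1 promoter, whose muscle peak is not itself among the 22291.

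At all 5 shared loci the AUC and the summit −log10 p were highest in hypothalamus, lower in muscle, and lowest in liver, but neither value was scaled between lists. Within-list percentiles of AUC kept this order at 5 of 5 loci, ranging from 85.2 to 95.9 in hypothalamus, from 44.0 to 93.3 in muscle, and from 7.22 to 80.9 in liver. The lists differ in length, and the order was not kept on scales that take this into account. When the AUC was set against the 22291 peaks with the highest summit in each list, the order was left at 1 of 5 loci, the INPP1 promoter. The muscle peak of that promoter is not itself in this set, since its summit of 4.69 is under the 5.05 required in muscle. The order was kept at none of the loci whose peaks were all in the set. By rank from the strongest peak it was left at 0 of 5. At the ASNSD1 promoter, for example, liver ranked 4251, hypothalamus 6303, and muscle 6813. At the PMS1 promoter muscle ranked 2671, hypothalamus 3201, and liver 6343. Which tissue had the strongest peak at these promoters therefore depends on how the lists are scaled.

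The summits of the shared loci lay close together. Taking the strongest peak of each list, the farthest 2 of the 3 summits were 43 to 120 bp apart, with a median of 94 bp. In muscle and hypothalamus the summit was at the same base at ASNSD1 (6676581) and at the intergenic locus (5980792), and in muscle and liver at OSGEPL1 (6592609). Every muscle peak that overlapped a hypothalamus peak (7 of 7) and every such liver peak (5 of 5) lay wholly within it. Lengths followed the order hypothalamus, muscle, liver at 4 of 5 loci, and the hypothalamus peak was 2.23 to 6.16 times as long as the liver peak.

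Sharing between tissues was set beside that of all peaks on chromosomes 1 to 29 and X. In hypothalamus 23 of 29 peaks (79.3%, Wilson 95% interval 61.6 to 90.2%) had no overlap in the other lists, against 74.8% of all peaks. In muscle 3 of 11 (27.3%, 9.75 to 56.6%) had none, against 36.0%. In liver 0 of 6 had none (0 to 39.0%), against 7.78%. The intervals cover counting error only and contain the share of all peaks in each list. Peaks that overlapped both other lists numbered 5 of 29 in hypothalamus (17.2%, 7.60 to 34.5%), against 12.9% of all peaks. In muscle they numbered 6 of 11 (54.5%, 28.0 to 78.7%), against 30.4%, and in liver 5 of 6 (83.3%, 43.6 to 97.0%), against 79.3%. The muscle share was thus above that of all muscle peaks, which its wide interval still contains, and 2 of the 6 muscle peaks lie in the same hypothalamus peak.

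The 3 muscle peaks with no overlap were all of low or middling strength. They comprised the 2 peaks upstream of MSTN and 1 peak at 6569521 to 6569762, placed at the PMS1 promoter by the annotation. The last had a length of 242 bp, an AUC of 444 (percentile 34.5), and a summit of 4.64, and it ended 1545 bp before the hypothalamus peak of that promoter. Their summits, 4.06 to 4.86, were all under 5, so that a minimum summit of 5 left none of them. None was left either with the 22291 highest summits in each list, which in muscle required 5.05.

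**Figure D4:**
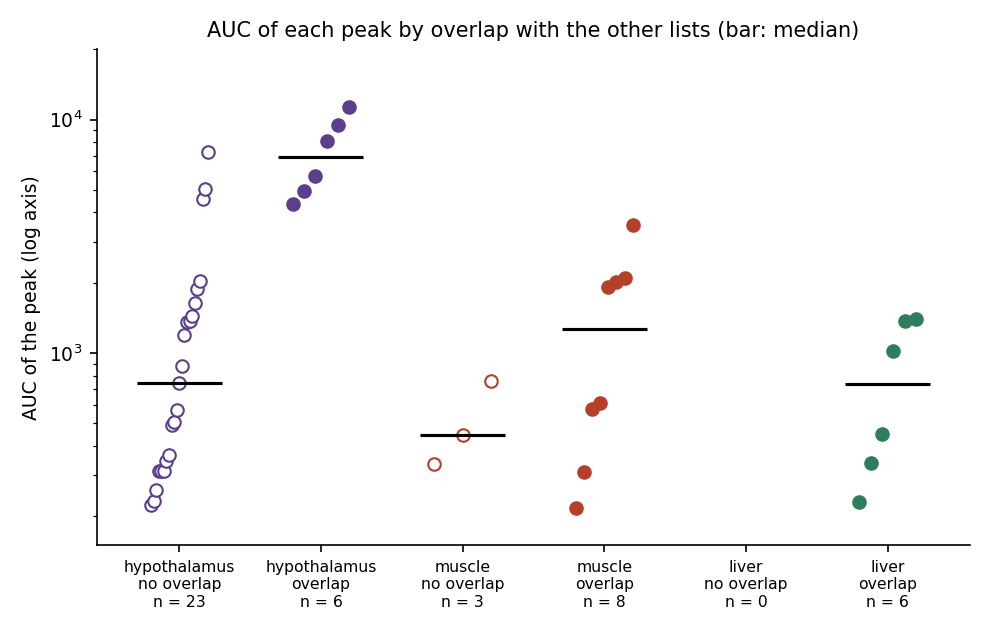
AUC of each of the 46 peaks (log axis) by tissue and by whether the peak overlaps another list, with a bar at the median. Hypothalamus peaks with an overlap lie between 4355 and 11294.5, and those without one between 223 and 7248, while the 3 muscle peaks without an overlap lie between 336 and 758.

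In hypothalamus the peaks with no overlap covered a wide range. Their AUC ran from 223 to 7248 with a median of 746 (percentile 46.3), and their lengths from 219 to 1990 bp with a median of 426 bp. The 5 hypothalamus peaks shared with both other lists had an AUC of 4963 to 11294.5 with a median of 8078 (percentile 92.0), and a median length of 1714 bp. Both groups overlapped in strength, since 2 peaks without an overlap were above the weakest peak shared with both other lists. Those 2 were the peak at 6216639, described above, and the one at 5906644 to 5908344 with an AUC of 5020. The 5 hypothalamus peaks with the highest AUC were those at PMS1, the intergenic locus near INPP1, ASNSD1, the peak upstream of MSTN at 6216639, and OSGEPL1, so 4 of the 5 had a peak in every list.

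Overlaps of only 2 lists were few. The peak in C2H2orf88, a gene for a small A-kinase anchoring protein upstream of MSTN, was found in hypothalamus and muscle. In hypothalamus it ran from 6136825 to 6137893 with an AUC of 4355 (percentile 83.5) and a summit of 10.3. In muscle it ran from 6137158 to 6137537 with an AUC of 610 (percentile 46.3) and a summit of 5.03, in an intron. The summits were 91 bp apart, and 2 more hypothalamus peaks fell in the same gene. In liver the nearest peak was 155674 bp away from the hypothalamus peak.

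The only locus with muscle and liver peaks but no hypothalamus peak was in an intron of PMS1, at the downstream edge of the peak-free stretch. The muscle peak (6506176 to 6506436) had an AUC of 216 and a summit of 4.29, and the liver peak (6506154 to 6506385) an AUC of 339 and a summit of 4.95. They shared 210 bp, and their summits were 2 bp apart. Both were weak, at percentile 3.63 of AUC in muscle and 26.0 in liver, and the nearest hypothalamus peak was 64871 bp away from the muscle peak. This was 1 of 11 muscle peaks of the window, and 2.95% of all muscle peaks on chromosomes 1 to 29 and X overlapped liver and not hypothalamus.

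By number of peaks, the window was above the median of its size in each list. Chromosomes 1 to 29 were tiled in 3094 consecutive windows of 800 kb. The median window held 17 hypothalamus peaks, 5 muscle peaks, and 2 liver peaks, against 29, 11, and 6 here, at percentiles 70.8, 70.9, and 82.2. As many peaks or more were found in 928, 942, and 614 windows, so the number of peaks around MSTN was not rare. The hypothalamus peaks covered 23.5 kb of the window (2.94%), the muscle peaks 5.52 kb (0.690%), and the liver peaks 2.92 kb (0.365%).

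**Figure D5:**
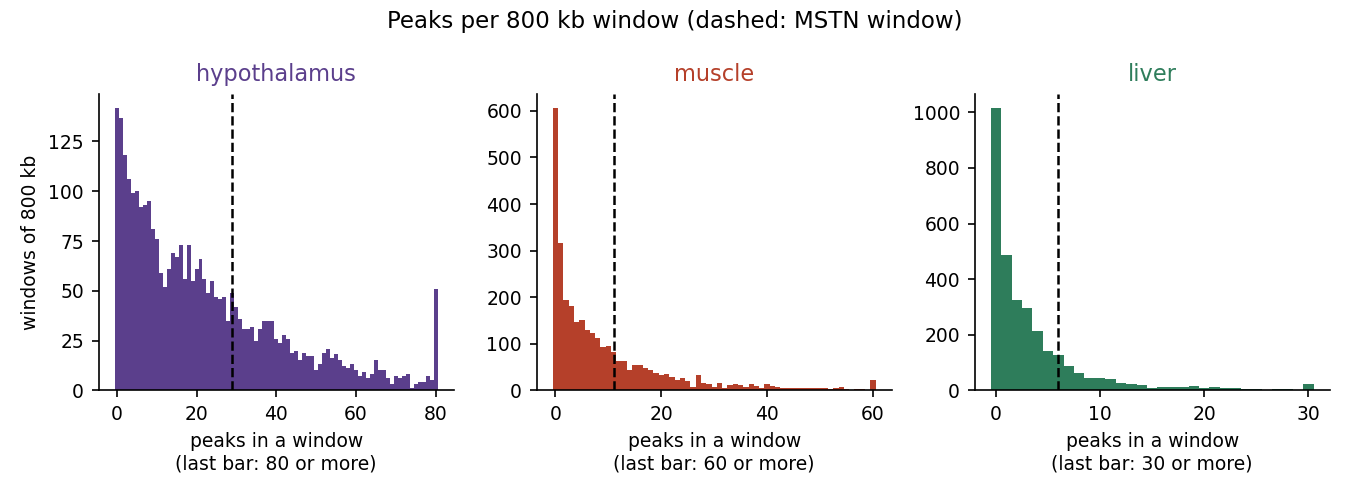
Number of 800 kb windows on chromosomes 1 to 29 (vertical axis) by number of peaks in the window (horizontal axis) in each list, with a dashed line at the window of MSTN. The line stands at 29 peaks in hypothalamus, 11 in muscle, and 6 in liver, above the medians of 17, 5, and 2.

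Peaks of the window were longer than those of the whole lists by the median, and in hypothalamus and liver they were also stronger by the median. The median length was 619 bp in hypothalamus, 547 bp in muscle, and 518.5 bp in liver, against 543, 482, and 431 bp over all peaks. The median AUC was 1354, 610, and 734, against 842, 679, and 573. The median summit −log10 p was 8.79, 4.86, and 5.58, against 5.99, 5.35, and 5.07, so muscle was below its list by both measures. Above the median of their list by AUC were 17 of 29 peaks in hypothalamus, 5 of 11 in muscle, and 3 of 6 in liver. The highest peak of the window stood at AUC percentile 95.9 in hypothalamus, 93.3 in muscle, and 80.9 in liver. These are the maxima of 29, 11, and 6 peaks. A maximum tends to rise with the number of peaks, so these values do not compare strength between tissues. In liver only 54.1% of peaks lie on chromosomes 1 to 29 and X, and the highest liver peak stood at percentile 88.0 of those.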

How the data were processed

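ATAC-seq peaks from hypothalamus, muscle, and liver of 3 heifers (9 libraries) were read from the lists as deposited, 1 consensus list per tissue. For these lists, HISAT2 was used by the authors for alignment to ARS-UCD1.2, followed by Genrich 0.6.1 for peaks in its ATAC-seq mode, without PCR duplicates or the mitochondrial chromosome, weighting reads with several alignments as fractions and combining the p values of replicates by Fisher's method. The deposited signal value is the AUC, and the deposited −log10 p is that of the summit, without multiple-test correction. Neither is scaled between lists, and depth per library is not in them. Starts were counted from 0 and are printed from 1. Distances were measured from 6.28 Mb, the position of MSTN rounded to 10 kb, in place of its start site. Peaks overlapping by 1 bp were shared, checked with bedtools 2.31.1. Percentiles took the middle rank of ties, and shares were given Wilson 95% intervals. Calculations used python 3.11.15, numpy 2.4.6, and pandas 2.3.3, and plots matplotlib 3.10.9. Tested on simulated data of 3000 loci and on small made-up cases, 11 of 11 values were recovered. Gene names, classes, and the strand of MSTN came from the authors' ChIPseeker annotation, for muscle and liver only. The authors made it with Bos taurus annotation libraries, so indicine reads were placed on a reference annotated for Bos taurus.

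The window, gene lists, and measures were chosen with earlier results of these data known. Named were MSTN and annotated genes of the window, every muscle and liver peak, every peak within 100 kb of MSTN, every region in all 3 lists, and the 5 hypothalamus peaks of highest AUC; the hypothalamus peaks at 5906644 and in C2H2orf88 were named beside others. Alternatives used a stricter summit, equal numbers of peaks, other overlaps, 200 bp around the summit, the inner 400.0 kb of the window, and other rankings. Other genes of the myostatin pathway, tissue markers, and promoter sequences were not analysed here, since gene positions of this build were used only for the annotated genes of the window, and no sequence was used.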

Additional observations from a re-analysis of the deposited data

How the results depend on the processing

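The 20 results were recomputed under their alternatives, which gave 72 values in all, and 24 of these were within the range set for no change. No paired analysis was possible because the lists combine the heifers of a tissue. No fit without a heifer was made for the same reason. Alternatives for pathway genes were not run, since gene positions of the build were used only for the annotated genes of the window.

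With a minimum summit of 5, the window held 19 hypothalamus peaks, 5 muscle peaks, and 3 liver peaks. With the same number of peaks in each list they were 15 in hypothalamus and 4 in muscle. The inner 400.0 kb of the window (6.1 to 6.5 Mb) held 6, 3, and 0. Peaks with no overlap in the other lists numbered 14 in hypothalamus and 0 in muscle with the stricter summit, 10, 0, and 1 (liver) with equal numbers, and 5 in hypothalamus in the inner 400.0 kb. Asking for an overlap of at least 50% of both peaks gave 27 such peaks in hypothalamus, 5 in muscle, and 1 in liver. Regions covered in all lists were 3 with the stricter summit and 0 in the inner 400.0 kb.

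The highest AUC percentile with the stricter summit was 93.7 for hypothalamus, 88.3 for muscle, and 64.2 for liver, and 85.7 in hypothalamus and 88.1 in muscle with equal numbers. Ranked on chromosomes only it was 94.9 in muscle and 88.0 in liver. By AUC per bp it was 99.4 in hypothalamus and 76.9 in liver, and by the summit 98.0, 94.3, and 79.7. The percentile of the window by number of peaks was 65.4 in muscle and 86.3 in liver with the stricter summit, 89.1 in hypothalamus and 59.99 in muscle with equal numbers, and 76.5, 76.8, and 86.2 among windows of chromosome 2.

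The distance from MSTN to the nearest muscle peak was 142 kb with the stricter summit and 292 kb with equal numbers. Both settings remove the muscle peaks near the gene, in the PMS1 intron, at 6569521, and at the INPP1 promoter. They also remove the smaller muscle peak of the intergenic locus, and equal numbers remove the one in C2H2orf88 as well. In liver it was 292 kb with the stricter summit. Measured to the summit, the nearest peak was 34.9 kb away by the hypothalamus list, 28.2 kb by the muscle list, and 226 kb by the liver list. Chosen after seeing the data were the peak-free stretch and the order of tissues. The stretch measured 434 kb in muscle and 591 kb in liver with the stricter summit, and 590 kb in muscle with equal numbers, while it stayed at 326 kb in hypothalamus. The order hypothalamus, muscle, liver held at 1 of 5 shared loci with equal numbers and at 0 by rank. With equal numbers the muscle peak of that locus, the INPP1 promoter, was itself outside the set.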
